A study of Equus caballus with 24 samples.

Results

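Osteoclasts are the large, multinucleated cells of the monocyte and macrophage lineage that resorb bone and calcified cartilage. They form when the ligand RANKL (gene TNFSF11), carried by osteoblasts, osteocytes and hypertrophic chondrocytes, binds its receptor RANK (TNFRSF11A) on precursor cells, while osteoprotegerin (OPG, TNFRSF11B) is a soluble decoy receptor that takes up RANKL. A mature osteoclast seals off a patch of bone with integrins, acidifies it with a proton pump and digests the exposed matrix with enzymes. In a growing epiphysis, the end of a long bone, this removal of calcified cartilage and bone goes together with the formation of new bone.

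Here 10 genes of this system were taken by their symbol from the gene name column of the deposited tables, and 9 of them were found among 24232 genes with read counts and among 24248 genes with RPKM values. They are the resorption enzymes CTSK (ENSECAG00000019087) and ACP5 (ENSECAG00000012113) and the receptors TNFRSF11A (ENSECAG00000014672), CALCR (ENSECAG00000001570) and ITGB3 (ENSECAG00000017625). With them stand the fusion protein DCSTAMP (ENSECAG00000019191), the proton pump subunit ATP6V0D2 (ENSECAG00000015484), the ligand TNFSF11 (ENSECAG00000016559) and the decoy receptor TNFRSF11B (ENSECAG00000014916). OSCAR, a costimulatory receptor of the lineage, was not analysed here because no row carries its symbol. The genes were taken by name and not by a threshold on their values, but with earlier results of these data known.

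RNA of the pituitary and the long bone epiphysis was sequenced from female Debao ponies (DP), a breed of short stature, and female Mongolian horses (MH), at a juvenile and an adult stage. This gave 24 libraries in 8 groups of 3, named DPLBJ, MHLBJ, DPLBA and MHLBA for the juvenile and adult long bone and DPPJ, MHPJ, DPPA and MHPA for the juvenile and adult pituitary. The material came from slaughtered animals, and each breed at each stage stands on 3 horses, so differences between horses and between the pieces of tissue taken are part of every spread. The number of reads counted on genes was between 11433209 and 27007342 per library. Levels are given as RPKM (reads per gene length and library size), so that levels of different genes can be set side by side, and normalised reads are library-scaled counts (CPM) with TMM factors. Differences are log2 fold changes from edgeR's quasi-likelihood test on the read counts, after TMM scaling and removal of genes with few reads. A gene counted as differentially expressed (DEG) when its fold change was over 2 and its P, before adjustment, under 0.05, and adjusted p-values are Benjamini-Hochberg values of the same test over all genes tested.

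Some libraries stood apart or went against their label. By the median correlation with the other libraries of their tissue, MHLBA replicate 1 (r = 0.896 across genes) and DPLBJ replicate 2 (r = 0.911) were lowest in the long bone, and MHPJ replicate 2 (r = 0.888) and MHPJ replicate 3 (r = 0.910) in the pituitary. In 5 of the 12 pituitary libraries, the summed RPKM of 11 hormone cell markers was between 46.4 and 1957 RPKM, against 26350 to 50062 RPKM in the other 7. These 5 were all 3 MHPJ libraries, DPPA replicate 1 and MHPA replicate 1. The long bone libraries had high osteoblast and osteocyte markers throughout, with sums of 12 genes between 3540 and 33192 RPKM. Markers of cartilage and of neutrophils were unequal between the long bone libraries, from 28.4 to 7238 RPKM for 12 cartilage genes and from 7.35 to 8597 RPKM for 6 neutrophil genes, and were DEGs higher in DPs over both stages for 11 of 11 tested cartilage genes and 6 of 6 neutrophil genes, against 11.4% of all genes. In such bulk tissue, fewer cells of a type and less RNA per cell cannot be told apart.

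Most of the osteoclast genes were far higher in the long bone than in the pituitary. Of the 9 genes, 8 were DEGs between the tissues and all 8 were higher in the long bone. Among all 16131 genes tested, 38.9% were DEGs between the tissues and 17.4% were higher in the long bone. ACP5 (tartrate-resistant acid phosphatase, the classical stain for osteoclasts) had 38.4 RPKM in the lowest long bone library, a median of 336 RPKM and 949 RPKM in the highest, against 0.30, 0.855 and 2.41 RPKM in the pituitary. No pituitary library reached the long bone range, and the log2 fold change was 8.67 ± 0.588 (SE, edgeR adjusted p = 1.47e-09). CTSK, the collagen-digesting cysteine protease cathepsin K, ranged from 83.2 to 997 RPKM in the long bone with a median of 448 RPKM, and from 3.21 to 35.5 RPKM in the pituitary with a median of 15.7 RPKM. The ranges were again separate, with a log2 fold change of 5.20 ± 0.443 (edgeR adjusted p = 1.89e-08). By its RPKM, CTSK took rank 71 among all genes in its best long bone library and rank 177 in the median one.

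TNFSF11 was barely detected in the pituitary. Its 12 pituitary libraries held 29 reads together, with at most 11 reads (0.40 RPKM) in any of them, while each long bone library held between 88 and 826 reads (5.09 to 26.9 RPKM, median 11.5 RPKM). The log2 fold change of 7.50 ± 0.417 (edgeR adjusted p = 1.55e-10) rests on these few pituitary reads and was 3.60 with limma on log2(RPKM + 1). ITGB3, the integrin beta chain of the vitronectin receptor that anchors osteoclasts to bone, was 13.5 to 96.9 RPKM in the long bone and 0.570 to 2.46 RPKM in the pituitary (log2 fold change 5.05 ± 0.343, edgeR adjusted p = 1.47e-09). These 4 genes, ACP5, CTSK, TNFSF11 and ITGB3, had no overlap between the tissues, as was the case for 7.52% of all genes tested.

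The other 5 genes overlapped between the tissues. ATP6V0D2, the osteoclast isoform of a membrane subunit of the proton pump, was 40.5 to 257 RPKM in the long bone and 1.48 to 9.97 RPKM in 11 pituitary libraries, but 55.1 RPKM (1229 reads) in MHPA replicate 1. That single library made the overlap, and the log2 fold change was 4.47 ± 0.498 (edgeR adjusted p = 4.51e-07). DCSTAMP, a membrane protein needed for the fusion of precursors, was scarce everywhere, with 0.0900 to 2.55 RPKM in the long bone and at most 0.860 RPKM in the pituitary (log2 fold change 2.85 ± 0.657, edgeR adjusted p = 0.000994).

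In edgeR's test, the receptor and the decoy had smaller log2 fold changes between the tissues than the genes above. TNFRSF11A was 1.29 to 13.6 RPKM in the long bone and 0.620 to 8.52 RPKM in the pituitary, with a log2 fold change of 1.21 ± 0.350 (edgeR adjusted p = 0.00570). Without the 5 pituitary libraries low in hormone cell markers, which leaves no MHPJ library, this difference was 0.48 and no longer a DEG (edgeR adjusted p = 0.317). It was also no DEG without MHLBA replicate 2 (0.93) or with limma on log2(RPKM + 1) (0.65), where the fold change was under 2. TNFRSF11B was 11.4 to 110 RPKM in the long bone and 0.480 to 20.0 RPKM in the pituitary (log2 fold change 2.54 ± 0.511, edgeR adjusted p = 0.000294), and 4.04 without those 5 libraries. CALCR, the calcitonin receptor, was no DEG between the tissues (log2 fold change 0.03 ± 0.610, edgeR adjusted p = 0.976) and its sign turned with limma and with the replicate number as a block. Its level was 0 to 3.20 RPKM in the long bone and 0.0400 to 3.51 RPKM in the pituitary.

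**Figure D1:**
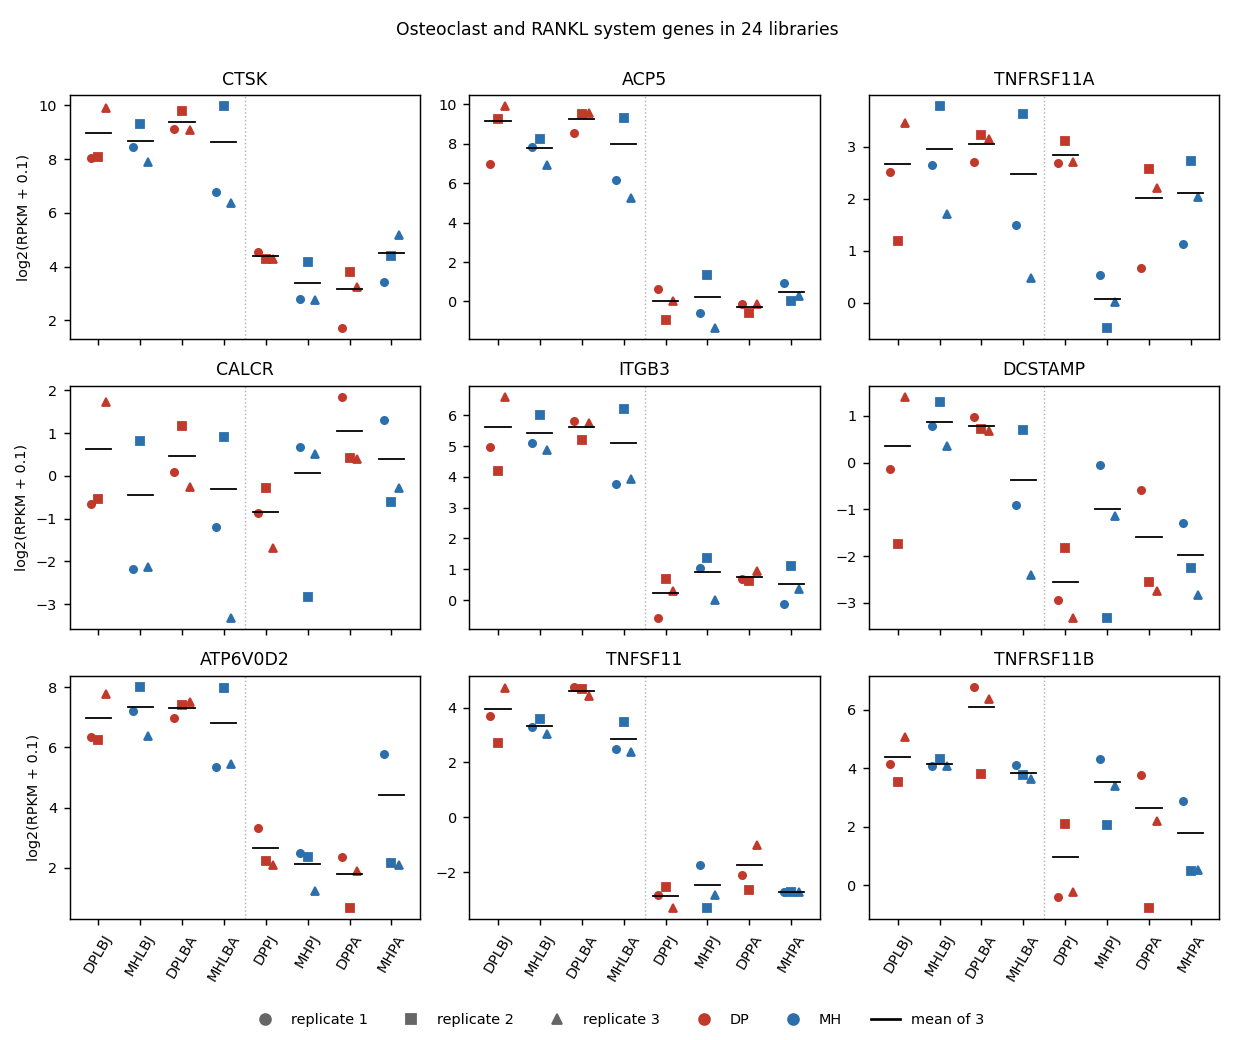
RPKM of the 9 genes on a log2 scale (0.1 RPKM added) in the 8 groups, with 1 point for each library, marker shape for the replicate number, red for DP, blue for MH and a black line at the mean of 3 libraries. ACP5, CTSK, TNFSF11 and ITGB3 separate the long bone groups (left of the dotted line) from the pituitary groups, while CALCR does not, and MHLBA replicate 2 (square) lies far above the other 2 MHLBA libraries for CTSK, ACP5 and ATP6V0D2.

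Within the long bone, the levels spread widely between horses of 1 group. CTSK was 262, 267 and 965 RPKM in the 3 DPLBJ libraries and 348, 635 and 240 RPKM in MHLBJ. In adults it was 557, 897 and 548 RPKM in DPLBA and 109, 997 and 83.2 RPKM in MHLBA. By RPKM, the highest of all 12 libraries, MHLBA replicate 2, and the lowest, MHLBA replicate 3, belonged to the same group, and DP and MH overlapped at both stages. The groups stood in the order DPLBA, DPLBJ, MHLBJ and MHLBA by their mean, and neighbours in this order overlapped. For every one of the 9 genes, each group overlapped with its neighbour in the order of the 4 long bone group means.

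ACP5 followed a similar course. It was 127, 606 and 949 RPKM in DPLBJ against 230, 305 and 121 RPKM in MHLBJ, and 368, 738 and 744 RPKM in DPLBA against 72.2, 637 and 38.4 RPKM in MHLBA. Most DP libraries were higher than most MH libraries, but the first DPLBJ library and the second MHLBA library crossed over. DCSTAMP was 0.810, 0.200 and 2.55 RPKM in DPLBJ, 1.61, 2.35 and 1.18 RPKM in MHLBJ, 1.85, 1.54 and 1.50 RPKM in DPLBA and 0.430, 1.51 and 0.0900 RPKM in MHLBA. The adult breeds did not overlap for it by normalised reads, but by RPKM the highest MHLBA library was just above the lowest DPLBA library.

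The receptors and the proton pump showed the same 2 features, a wide spread and a high second MHLBA library. TNFRSF11A was 5.65, 2.17 and 10.9 RPKM in DPLBJ and 6.15, 13.6 and 3.17 RPKM in MHLBJ, then 6.42, 9.26 and 8.81 RPKM in DPLBA and 2.72, 12.3 and 1.29 RPKM in MHLBA. ITGB3 was 31.1, 18.3 and 96.9 RPKM in DPLBJ and 34.2, 64.7 and 28.9 RPKM in MHLBJ, then 55.7, 36.5 and 53.8 RPKM in DPLBA and 13.5, 73.7 and 15.2 RPKM in MHLBA. ATP6V0D2 was 80.6, 76.0 and 220 RPKM in DPLBJ and 149, 257 and 83.3 RPKM in MHLBJ, then 127, 169 and 183 RPKM in DPLBA and 40.5, 254 and 43.2 RPKM in MHLBA. For these 3 genes the DPLBA libraries lay between the low and the high MHLBA libraries. CALCR had between 0 and 109 reads per long bone library, too few for a close comparison.

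The question of whether osteoclast genes differ between the short and the tall breed was asked at each stage and over both. At the juvenile stage, 0 of the 9 genes were DEGs, against 13.8% of the 13755 genes tested, and 0 had an unadjusted P under 0.05 in edgeR's test, as 17.8% of all genes had. DESeq2 called 1 gene, ACP5. The log2 fold changes of DPLBJ over MHLBJ lay between −0.47 for DCSTAMP and 1.47 for ACP5 with a median of 0.33, beside a median of 0.05 over all genes, and 6 of 9 were above 0, where 53.4% of all genes were. Leaving out DPLBJ replicate 1 made ACP5 a DEG, leaving out DPLBJ replicate 2 TNFSF11, and leaving out MHLBJ replicate 2 CALCR.

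At the adult stage, 2 of the 9 genes were DEGs, TNFSF11 and TNFRSF11B, and both were higher in DPs. The share among the 14073 genes tested was 18.3%, and 10.3% were higher in DPs. TNFSF11 was 26.9, 25.4 and 21.6 RPKM in DPLBA and 5.48, 11.04 and 5.09 RPKM in MHLBA. Each DPLBA library was above each MHLBA library, and the log2 fold change was 1.67 ± 0.359 (SE), a 3.17-fold higher level (edgeR adjusted p = 0.0576). TNFSF11 was a DEG in all 6 fits that left out 1 library, with log2 fold changes from 1.39 to 1.94. Its adjusted p over the other tools and scalings was between 0.00141 and 0.0888.

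TNFRSF11B was 110, 13.99 and 83.2 RPKM in DPLBA and 17.3, 13.6 and 12.2 RPKM in MHLBA. DPLBA replicates 1 and 3 were far above all others, while replicate 2 lay inside the MHLBA range. Its log2 fold change was 1.99 ± 0.691 (edgeR adjusted p = 0.138), and it was no DEG without DPLBA replicate 1, DPLBA replicate 3, MHLBA replicate 2 or MHLBA replicate 3.

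The remaining adult genes had positive log2 fold changes that did not pass the test. All 9 log2 fold changes were above 0, where 48.1% of all genes were, with a median of 0.83 beside −0.03 over all genes. Most of these genes varied together over the long bone libraries, so the 9 directions are not separate results. The estimates were 0.81 ± 0.841 for CTSK, 1.36 ± 0.914 for ACP5, 0.56 ± 0.698 for TNFRSF11A, 0.50 ± 0.562 for ITGB3 and 0.53 ± 0.626 for ATP6V0D2. By normalised reads, 2 of the 9 genes did not overlap between DPLBA and MHLBA, TNFSF11 and DCSTAMP, against 29.9% of all genes. The count of DEGs depended on MHLBA replicate 2. Without it, 6 of the 9 genes were DEGs, and log2 fold changes were 2.5 for CTSK, 3.11 for ACP5, 1.63 for TNFRSF11A, 1.51 for ITGB3 and 1.69 for ATP6V0D2. Without MHLBA replicate 1, the library least like the others, the DEGs were TNFSF11 and TNFRSF11B.

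**Figure D2:**
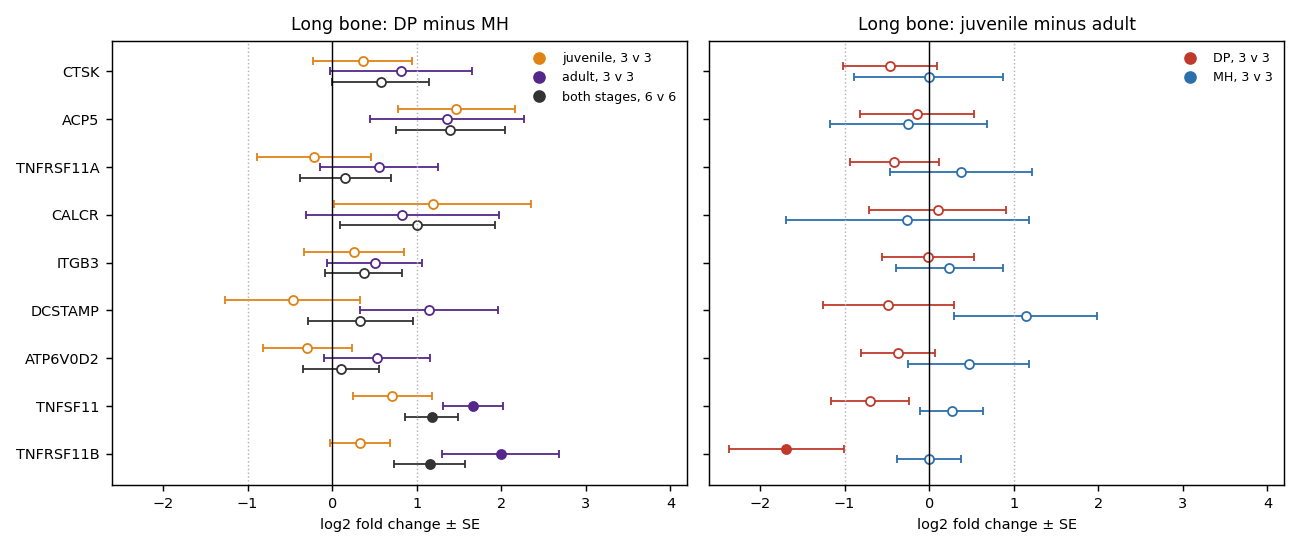
Log2 fold change with its SE (bars) of the 9 genes in the long bone, between breeds (left, DP minus MH) and between stages (right, juvenile minus adult). Filled points are DEGs and dotted lines mark a fold change of 2. TNFSF11 and TNFRSF11B are DEGs between adult DPs and MHs and over both stages, and TNFRSF11B is the only DEG between stages, in DPs.

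Over both stages, with 6 DP and 6 MH libraries, the same 2 genes were DEGs, TNFSF11 and TNFRSF11B, against 19.3% of 14735 genes. All 9 log2 fold changes were above 0, as were 49.2% of all genes, with a median of 0.58 beside −0.01 over all genes. Here too the 9 directions are not separate results, as most of these genes varied together. Moreover, 0 of the 9 genes separated all DP from all MH libraries, which 5.89% of all genes did. In DPs, TNFSF11 was between 6.37 and 26.9 RPKM with a median of 23.5 RPKM, and in MHs between 5.09 and 11.9 RPKM with a median of 8.93 RPKM. The 5 highest of the 12 libraries were DP libraries and 1 DP library, DPLBJ replicate 2, lay in the MH range. The log2 fold change was 1.18 ± 0.312 (edgeR adjusted p = 0.0278). TNFRSF11B was between 11.4 and 110 RPKM with a median of 25.5 RPKM in DPs and between 12.2 and 19.8 RPKM with a median of 16.8 RPKM in MHs. Only 3 DP libraries were above the MH range, and the log2 fold change was 1.15 ± 0.425 (edgeR adjusted p = 0.0809). It was no DEG without DPLBJ replicate 3 or DPLBA replicate 1, nor with limma. ACP5 narrowly missed the threshold with 1.40 ± 0.641 (edgeR adjusted p = 0.149). It passed the same threshold with DESeq2, with limma on both scales, with DESeq2 size factors, without the low-count filter and with the replicate block, with log2 fold changes from 1.38 to 1.66 and adjusted p-values from 0.0577 to 0.164. ACP5 was also a DEG without DPLBJ replicate 1, DPLBA replicate 1 or MHLBA replicate 2, and in the last case so was CTSK. Without DPLBJ replicate 3, 0 of the 9 genes were DEGs and the log2 fold change of TNFSF11 was 0.89 (edgeR adjusted p = 0.0674).

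Between the stages, DPs had 1 DEG among the 9 genes in the long bone, TNFRSF11B, against 3.14% of 13866 genes. It was 17.7, 11.4 and 33.3 RPKM in DPLBJ, against 110, 13.99 and 83.2 RPKM in DPLBA, so that 2 adult libraries were above all juvenile ones and 1 was not. The log2 fold change of juveniles over adults was −1.69 ± 0.680 (edgeR adjusted p = 0.988). It was no DEG without DPLBJ replicate 1, DPLBJ replicate 2, DPLBA replicate 1 or DPLBA replicate 3, nor with limma. Without DPLBJ replicate 3, CTSK, TNFSF11 and TNFRSF11B were the DEGs. In MHs 0 of the 9 genes were DEGs, against 2.91% of 13899 genes, and 0 had an unadjusted P under 0.05 in edgeR's test, against 4.27% of all genes. With MHLBA replicate 2 left out, CTSK, ITGB3 and ATP6V0D2 were DEGs. The breed difference was not shown to depend on the stage, since 0 of the 9 genes passed the interaction test, where the share was 4.48% of all genes. TNFRSF11B came nearest (log2 difference −1.70 ± 0.846, edgeR adjusted p = 0.971), and the count was 2 without DPLBJ replicate 3 (TNFSF11 and TNFRSF11B) or MHLBA replicate 2 (CTSK and ATP6V0D2) and 1 (TNFRSF11B) without DPLBA replicate 2 or MHLBA replicate 1.

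The balance of ligand and decoy was examined as the ratio of TNFSF11 to TNFRSF11B in RPKM. It was 0.727, 0.560 and 0.797 in DPLBJ and 0.577, 0.599 and 0.489 in MHLBJ. In adults it was 0.244, 1.81 and 0.259 in DPLBA and 0.318, 0.813 and 0.417 in MHLBA. DPLBA held both the lowest ratios and the highest, and only DPLBA replicate 2 had more ligand than decoy RNA. The mean log2 ratio was −0.79 ± 1.09 (SD, n = 6) in DPs and −0.96 ± 0.468 (SD, n = 6) in MHs, a difference of 0.17 in a two-sided exact permutation test (p = 0.747). At single stages the two-sided exact p was 0.3 in juveniles and 1.0 in adults, where 3 libraries against 3 cannot go below 0.1, and over these 3 tests the adjusted p-values were between 0.9 and 1.0. The difference of both stages turned to −0.16 without DPLBA replicate 2.

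**Figure D3:**
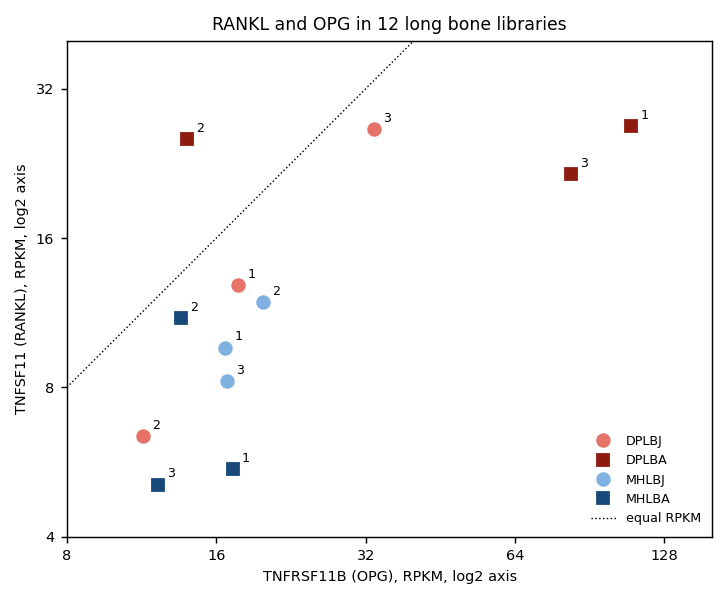
RPKM of TNFSF11 (RANKL) against TNFRSF11B (OPG) in the 12 long bone libraries, both on log2 axes, with the replicate number beside each point and a dotted line where both are equal. The 3 DPLBA libraries (dark red) have similar TNFSF11 levels of 21.6 to 26.9 RPKM but TNFRSF11B levels of 13.99, 83.2 and 110 RPKM, and 11 of 12 libraries lie on the side with more TNFRSF11B.

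Across the 12 long bone libraries, 7 genes rose and fell with CTSK and 1 did not. Over normalised reads on a log2 scale, Pearson's r with CTSK was 0.944 for ATP6V0D2, 0.903 for TNFRSF11A, 0.898 for ITGB3, 0.893 for ACP5, 0.887 for CALCR, 0.815 for DCSTAMP and 0.786 for TNFSF11, and Spearman's rho was between 0.776 and 0.909. Over the 8 relations, adjusted permutation p-values of r were at most 0.00279 for these 7 genes, and those of rho at most 0.00518. CALCR had only 0 to 109 reads and DCSTAMP 2 to 97 reads in a long bone library, so their r rests on few reads. The 2 libraries farthest from the median of CTSK were MHLBA replicates 3 and 1, and without them r was between 0.598 (DCSTAMP) and 0.877 (ATP6V0D2). With the 4 group means removed, r was between 0.769 and 0.966 over the 12 libraries pooled. Single groups were not examined. MHLBA had the widest spread of CTSK, from 6.62 to 10.3 in log2 CPM, and so weighs most in these values. Of the 14734 other genes of the fit, 0.590% had an r with CTSK at least as high as that of TNFSF11, the lowest of the 7, and 24.3% one at least as high as that of TNFRSF11B. Within the 6 DP libraries r was between 0.671 and 0.933, and within the 6 MH libraries between 0.850 and 0.9899.

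TNFRSF11B, the decoy, went its own way, with r = 0.292 and rho = 0.203 (permutation p = 0.356 and 0.530) over the 12 libraries. With group means removed r was −0.02, within DPs 0.193 and within MHs 0.104.

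Markers of bone-forming cells and of macrophages were also unequal between these libraries. The summed RPKM of the 12 osteoblast and osteocyte genes was 30012, 8241 and 33192 RPKM in DPLBJ and 8920, 21780 and 6865 RPKM in MHLBJ. In adults it was 25580, 28757 and 26553 RPKM in DPLBA and 3540, 17084 and 4224 RPKM in MHLBA. The libraries that were low for CTSK, MHLBA replicates 1 and 3, were also the lowest here. MHLBA replicate 2, the highest library for CTSK by RPKM, was above them but below the long bone median of 19432 RPKM. By normalised reads, CTSK was 1320 CPM in DPLBA replicate 2 and 1253 CPM in DPLBJ replicate 3, above the 1243 CPM of MHLBA replicate 2. Of the 12 osteoblast genes, 6 were DEGs higher in adult DPs and 0 lower, against 10.3% and 8.03% of all genes. The 13 macrophage and monocyte markers summed to 233, 2047 and 1538 RPKM in DPLBJ, 516, 654 and 233 RPKM in MHLBJ, 1828, 1026 and 1512 RPKM in DPLBA and 132, 522 and 283 RPKM in MHLBA. All DPLBA libraries were above all MHLBA libraries for them, and 9 of 13 were DEGs higher in adult DPs and 1 lower. No marker of either list was below 0.1 RPKM in all long bone libraries. Of the other lists, 8 of 8 erythroid, 5 of 6 megakaryocyte and 3 of 8 B cell markers tested were DEGs higher in DPs over both stages and 0 lower, 4 of 8 adipocyte markers were lower and 0 higher, 1 of 9 endothelial markers was higher and 3 lower, and 0 of 9 T cell markers were DEGs. Of all genes, 11.4% were higher and 7.97% lower over both stages. The part of these cells in the differences of TNFSF11, TNFRSF11B and the osteoclast genes was not tested.

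**Figure D4:**
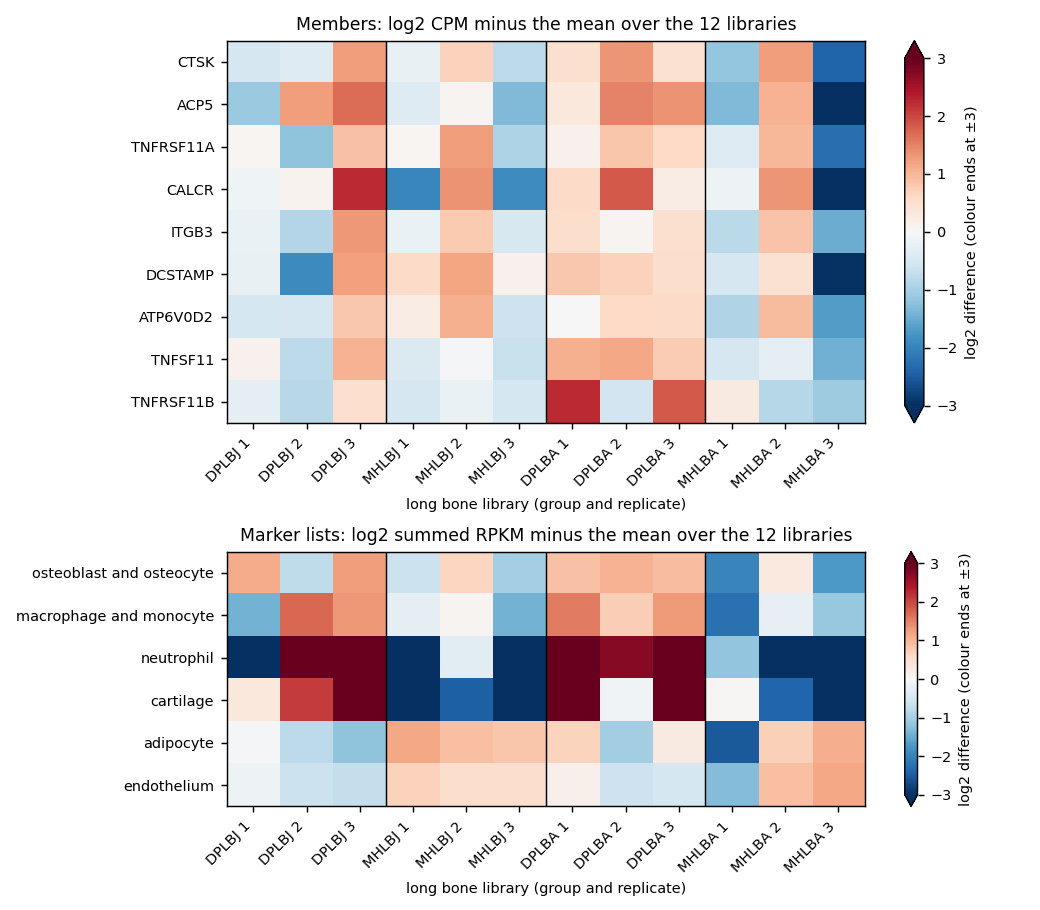
The 12 long bone libraries in columns, with the 9 genes (top, log2 CPM) and the summed RPKM of 6 lists of cell type markers (bottom, log2), each as the difference from its mean over the 12 libraries. Red is above and blue below the mean and the colours end at a log2 difference of 3, which several neutrophil and cartilage values exceed. CTSK, TNFRSF11A, ITGB3 and ATP6V0D2 are all high in DPLBJ 3, MHLBJ 2 and MHLBA 2 and lowest in MHLBA 3, and CTSK is highest in DPLBA 2. MHLBA 1 is below the mean for each of these genes, but DPLBJ 2 is lower still for TNFRSF11A and ITGB3. TNFRSF11B is high in DPLBA 1 and 3, and the osteoblast row is low in MHLBA 1 and 3.

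The genes with the most similar course over the 12 long bone libraries were looked up among 12964 other genes with a unique symbol. The highest Pearson's r with CTSK were those of DNASE1L1 (0.944), EMB (0.935), ATP6V1D (0.935), SIGLEC15 (0.929) and CD84 (0.919). ACP5 was followed by MMP9 (0.986), GUSB (0.961), DNASE1L1 (0.961) and EMB (0.956). For TNFSF11 they were P4HA3 (0.932), C17orf72 (0.926), GALNT14 (0.919), PLEKHG4 (0.914) and KCNS1 (0.913). The genes nearest to TNFRSF11B were FAM150B (0.943), NRK (0.905), C11orf58 (0.901), C5orf52 (0.882) and WWP2 (0.881). The lists of CTSK and ACP5 share DNASE1L1 and EMB, and those of TNFSF11 and TNFRSF11B share no gene with them.

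Other genes of the pathway were counted in lists chosen by function. The first holds 34 measured factors and signalling proteins of osteoclast differentiation. In the adult long bone 9 of the 34 were DEGs higher in DPs and 2 lower, with a median log2 fold change of 0.20 beside −0.03 over all genes. The shares among all genes were 10.3% higher and 8.03% lower. Among the genes that were higher were the adaptors TYROBP (2.08 ± 0.365) and FCER1G (2.11 ± 0.401), which carry the costimulatory signal of receptors such as OSCAR, the tyrosine kinases SYK (1.95 ± 0.273) and BTK (2.5 ± 0.445), the phospholipase PLCG2 (1.50 ± 0.264), the receptors CSF1R (1.67 ± 0.559) and TREM2 (2.73 ± 0.741), and the transcription factor IRF8 (1.55 ± 0.453), which holds back osteoclast formation. The AP-1 factors JUN (−1.88 ± 0.285) and FOS (−1.49 ± 0.438) were lower in DPs. For TYROBP, FCER1G, SYK, BTK, PLCG2 and JUN the edgeR adjusted p was under the threshold, between 0.0232 for SYK and 0.0432 for FCER1G, which makes 6 of 34 against 2.24% of all genes.

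At the juvenile stage, TYROBP (2.61 ± 0.984), FCER1G (2.36 ± 0.994), SYK (1.87 ± 0.621) and BTK (2.49 ± 0.912) were DEGs higher in DPs, and the repressor BCL6 (−1.0 ± 0.325) and IL34 (−1.63 ± 0.644), a second ligand of CSF1R, were lower. The shares among all genes were 8.33% higher and 5.47% lower. The median of this list was 0.23 beside 0.05 over all genes, and no gene of the 34 passed after adjustment. Without DPLBJ replicate 2, which had the highest macrophage and neutrophil marker sums (2047 and 8597 RPKM), only BCL6 and IL34 were DEGs. The count ranged from 0 to 10 when single libraries were left out. Over both stages 9 were higher (among them TYROBP, FCER1G, SYK, BTK, PLCG2, CSF1R, TREM2 and IRF8) and 2 lower (JUN and IL34), with a median of 0.10, where 11.4% of all genes were higher and 7.97% lower. After adjustment 9 of the 34 passed, against 17.1% of all genes. TYROBP, FCER1G, SYK, BTK and PLCG2 are also used by macrophages, neutrophils and B cells, and CSF1R is in the macrophage list as well. The 6 neutrophil markers summed to 771 to 1245 RPKM in DPLBA and 7.35 to 51.5 RPKM in MHLBA.

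The second list holds 29 measured genes of acid secretion, fusion, attachment and matrix digestion. In adults 5 of the 29 were DEGs, all higher in DPs, and the median log2 fold change was 0.53. No gene of this list passed after adjustment in adults or juveniles. Of all genes, 10.3% were higher in adults, 8.33% in juveniles and 11.4% over both stages. The 5 adult genes were TCIRG1 (2.03 ± 0.582), the osteoclast subunit of the proton pump, OCSTAMP (2.01 ± 0.838), a fusion protein related to DCSTAMP, the metalloproteinase MMP14 (1.62 ± 0.518), and the lysosomal proteases CTSB (1.13 ± 0.430) and CTSZ (1.08 ± 0.390). In juveniles 4 of the 29 were DEGs, all higher in DPs and with a median of 0.27 over the list: TCIRG1 (1.69 ± 0.623), carbonic anhydrase CA2 (2.10 ± 0.670), which supplies protons, the gelatinase MMP9 (1.43 ± 0.583) and CD47 (1.11 ± 0.265). Over both stages TCIRG1 (1.84 ± 0.468), CA2 (1.50 ± 0.472), MMP9 (1.62 ± 0.598), CKB (1.28 ± 0.492) and OCSTAMP (1.84 ± 0.841) were DEGs, with a median of 0.40 beside −0.01 over all genes. TCIRG1 is the gene of this list that was a DEG in all 3 comparisons. With all libraries kept, alternatives gave OCSTAMP log2 fold changes of 0.61 to 2.19 in adults and 0.53 to 1.89 over both stages. The adult count was 13 without MHLBA replicate 2 and ranged from 2 to 13 over the libraries left out. It ranged from 1 to 4 in juveniles and from 3 to 7 over both stages. The erythroid markers summed to 0.54 to 6953 RPKM in DPLBJ and 0.81 to 9.02 RPKM in MHLBJ. For the neutrophil markers these sums were 8.07 to 8597 and 8.01 to 91.9 RPKM. The part of such cells in the differences of this list was not tested.

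The third list holds 22 measured genes that act on RANKL and OPG in stromal cells, with IL1B listed under 2 identifiers. In adults 5 of 21 tested were DEGs higher in DPs, the Wnt inhibitor DKK1 (2.31 ± 0.722), the parathyroid hormone receptor PTH1R (1.16 ± 0.375), the vitamin D receptor VDR (1.45 ± 0.486), IL1B (1.33 ± 0.542) and WNT5A (1.70 ± 0.70), while IL6 (−2.6 ± 1.01) was lower. The median was 0.17 over the list, and the shares of all genes were 10.3% higher and 8.03% lower. When single libraries were left out, the adult count of this list ranged from 0 to 7. It ranged from 2 to 7 in juveniles and from 3 to 6 over both stages. No gene of this list passed after adjustment in adults or juveniles. In juveniles both IL1B identifiers (3.18 ± 0.906 and 1.59 ± 0.626) were higher in DPs and the ephrin EFNB2 (−1.48 ± 0.493) and VDR (−1.29 ± 0.533) were lower among 19 tested, with a median of −0.15, where 8.33% of all genes were higher and 5.47% lower. The estimate for VDR in the interaction test was −2.79 ± 0.783, which did not pass after adjustment (edgeR adjusted p = 0.971). Over both stages IL1B (2.23 ± 0.539), WNT5A (2.15 ± 0.938) and DKK1 (1.17 ± 0.511) were higher and EFNB2 (−1.50 ± 0.446) and IL6 (−1.93 ± 0.691) lower among 22 tested, against 11.4% and 7.97% of all genes. IL6, IL1B and WNT5A had mean levels of at most 6.40 CPM in each group, so their values rest on few reads.

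In the pituitary, the breeds differed in the receptor and the decoy at the juvenile stage, in opposite directions. TNFSF11 and DCSTAMP had too few reads to be tested there. Of the other 7 genes 2 were DEGs, against 20.3% of 14603 genes, and both had no overlap between the breeds by normalised reads, against 39.7% of all genes. TNFRSF11A was 6.33, 8.52 and 6.40 RPKM in DPPJ and 1.35, 0.620 and 0.910 RPKM in MHPJ. The groups were far apart, with a log2 fold change of 2.70 ± 0.340 (edgeR adjusted p = 0.0151), and between 2.51 and 2.92 when 1 library was left out. TNFRSF11B was 0.660, 4.17 and 0.750 RPKM in DPPJ and 20.0, 4.10 and 10.5 RPKM in MHPJ. By normalised reads the groups did not overlap, although by RPKM the second DPPJ library was just above the second MHPJ library, and the log2 fold change was −2.79 ± 0.929 (edgeR adjusted p = 0.104). It was no DEG when DPPJ replicates 1 or 3 or the first MHPJ library were left out. Without MHPJ replicate 2, which stood apart, the DEGs were CTSK, TNFRSF11A, CALCR, DCSTAMP and TNFRSF11B.

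The same 2 genes were also unequal between pituitary libraries with high and with low hormone cell markers. TNFRSF11A was 4.01 to 8.52 RPKM in the 7 libraries with high hormone markers and 0.620 to 2.10 RPKM in the 5 with low ones. In the adult groups, DPPA replicate 1 had 1.50 RPKM against 5.81 and 4.49 RPKM in replicates 2 and 3, and MHPA replicate 1 had 2.10 RPKM against 6.53 and 4.01 RPKM. TNFRSF11B was 0.480 to 4.52 RPKM in the 7 libraries and 4.10 to 20.0 RPKM in the 5, with 13.6 RPKM in DPPA replicate 1 and 7.37 RPKM in MHPA replicate 1, so that these ranges met. Since all 3 MHPJ libraries were low and all 3 DPPJ libraries high in hormone markers, breed and hormone content cannot be told apart at the juvenile stage.

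**Figure D5:**
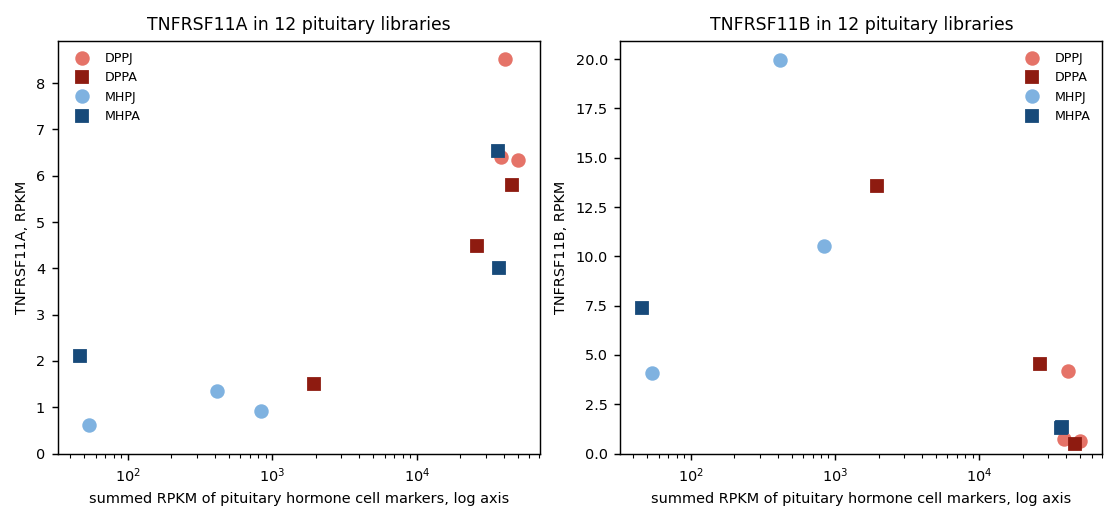
RPKM of TNFRSF11A (left) and TNFRSF11B (right) in the 12 pituitary libraries against the summed RPKM of 11 hormone cell markers on a log axis, with circles for juveniles, squares for adults, red for DP and blue for MH. The 5 libraries with sums of 46.4 to 1957 RPKM have TNFRSF11A of at most 2.10 RPKM, and the 7 others at least 4.01 RPKM.

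In the adult pituitary 0 of 7 genes were DEGs between the breeds, against 2.93% of 14376 genes, and 0 had an unadjusted P under 0.05 in edgeR's test, against 9.11% of all genes. Same-numbered adult pituitary libraries of the 2 breeds deviated together, and with the replicate number as a block CTSK was 1 DEG. CTSK was 3.21, 13.7 and 9.40 RPKM in DPPA and 10.6, 20.9 and 35.5 RPKM in MHPA, with the groups overlapping. It was also the DEG without the 2 adult libraries low in hormone markers. Leaving out DPPA replicate 2 gave 1 DEG (CTSK), MHPA replicate 1 1 (CALCR), and MHPA replicates 2 or 3 1 (ATP6V0D2). Between the stages, CTSK (log2 fold change 1.15 ± 0.466, edgeR adjusted p = 0.427) and CALCR (−2.27 ± 0.687, edgeR adjusted p = 0.419) were the 2 DEGs of 7 in the DP pituitary, against 3.56% of 14533 genes. CALCR was 0.450, 0.720 and 0.210 RPKM in DPPJ and 3.51, 1.23 and 1.22 RPKM in DPPA, and all adult libraries were higher. CTSK was 23.2, 19.5 and 19.5 RPKM in DPPJ, above each DPPA library, and it was no DEG without DPPA replicate 1, which is low in hormone markers, or without any 1 of the DPPJ libraries or DPPA replicate 3. Without DPPA replicate 2 the DEGs were 4, with TNFRSF11A and TNFRSF11B added. In the MH pituitary the 1 DEG of 7 was TNFRSF11A (−1.90 ± 0.490, edgeR adjusted p = 0.359), against 7.74% of 14430 genes, with every MHPJ library below every MHPA library. All MHPJ libraries were low in hormone markers, but of the MHPA libraries only replicate 1 was. The part of hormone content in this stage difference was not tested. TNFRSF11A was a DEG in all 6 fits that left out 1 of these libraries, with log2 fold changes between −2.16 and −1.48, joined by CTSK without MHPJ replicate 2 and by TNFRSF11B without MHPA replicate 1.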

How the data were processed

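Raw read counts of 24232 genes and RPKM values of 24248 genes in 24 libraries were used as the authors deposited them. RPKM was computed by the authors from gene length and library size. The authors' methods name Btrim, the horse assembly EquCab, Salmon and edgeR, and the processing notes list TopHat2. The program that counted the reads is not given in the sources used here. The libraries were directional and made after removal of ribosomal RNA.

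The counts were tested with edgeR 4.0.16 (R 4.3.3), using TMM factors, filterByExpr with a minimum count of 10 and the quasi-likelihood test, and each pair of groups was fitted on its own 6 libraries. The breed difference over both stages and its interaction were fitted on the 12 long bone libraries, and the tissue difference on all 24. Alternatives were DESeq2 1.42.0, limma 3.58.1 on log2(RPKM + 1) and log2(RPKM + 0.1), size factors, no low-count filter, a replicate block and leaving out each library. Exact tests used scipy 1.17.1, and the 100000 permutations were drawn with numpy 2.4.6.

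All members were named in each comparison. Genes of the 3 pathway lists were named where they were DEGs in a long bone breed comparison (at most 12 of a list), and the 5 genes most like CTSK, ACP5, TNFSF11 and TNFRSF11B by Pearson's r were looked up. Some genes that this rule names are not reported here. The members and lists were chosen with earlier results of these data known. Same-numbered adult pituitary libraries of the breeds correlated in their deviations from the group means (r from 0.330 to 0.621 over 3 pairs). The breeds are different horses, and replicate 1 was low in hormone cell markers in both adult groups. The reported fits did not pair them, and the replicate block was an alternative only. The labels number the libraries within a group and give no batch, and the paper states 3 horses for each breed and stage.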

Additional observations from a re-analysis of the deposited data

How the results depend on the processing

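Counts of members that are DEGs moved as follows, with the cause not tested. An adjusted p under 0.05 in place of the unadjusted threshold left 0 in the adult long bone, 1 in the juvenile pituitary, 0 in each stage comparison that had one (DP long bone, DP pituitary and MH pituitary) and 1, TNFSF11, over both stages. Over both stages ACP5 became a DEG in each of the other alternatives that kept all libraries, which gave 3 DEGs, or 2 with limma, where TNFRSF11B was lost. In the juvenile long bone DESeq2 and a fit without the low-count filter gave 1 each. Limma gave 0 in the DP long bone stage comparison on both scales, 1 in the DP pituitary on log2(RPKM + 1) and 1, DCSTAMP, in the interaction on log2(RPKM + 0.1), where no low-count filter also gave 1. A fit to all 12 libraries of the tissue gave 1 between the breeds in the pituitary at either stage, and between the stages 0 in the DP and 2 in the MH pituitary. With the replicate block there were 4 in the adult long bone, 1 between the breeds in the pituitary at either stage, 1 between the stages in the DP pituitary and 2 in the MH pituitary. Apart from the adult pituitary, same-numbered samples did not deviate together in every pair. In all comparisons, the adult pituitary included, the block rests on a shared number only. Leaving out the pituitary libraries low in hormone cell markers, an alternative chosen after seeing the data like those of the pathway lists, gave 1 in the adult pituitary.

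Leaving out 1 library gave 0 to 1 members in the juvenile long bone, 1 to 6 in the adult long bone, 1 to 5 in the juvenile pituitary, 0 to 1 in the adult pituitary, 0 to 3 between stages in the DP and also in the MH long bone, 1 to 4 in the DP and 1 to 2 in the MH pituitary, 0 to 4 over both stages and 0 to 2 in the interaction. Directions turned for ITGB3 in the juvenile long bone with limma (−0.062 and −0.069) and for CALCR between tissues with limma (−0.12 and −0.34) and the replicate block (−0.55).

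With single libraries left out, juvenile log2 fold changes lay between −0.41 and 0.84 for CTSK, −0.78 and 0.51 for TNFRSF11A, −0.00487 and 3.54 for CALCR, −0.58 and 0.71 for ITGB3, −1.57 and 0.015 for DCSTAMP, −0.84 and 0.21 for ATP6V0D2 and −0.072 and 0.58 for TNFRSF11B. Over both stages they lay between −0.13 and 0.68 for TNFRSF11A, −0.061 and 0.87 for ITGB3, −0.23 and 0.81 for DCSTAMP and −0.18 and 0.68 for ATP6V0D2. CALCR between tissues lay between −0.57 and 0.31, and the log2 ratio difference between −0.16 and 0.42. Of the values of single members with all libraries kept, 248 held their direction and side of the threshold, 10 gained and 13 lost a call and 5 turned. With 1 library left out these numbers were 408, 13, 20 and 27. Both tallies cover each member in the breed comparisons of the long bone and between the tissues. In the other comparisons they cover only members that were DEGs in the main fit. Calls gained and directions turned by other members there are not counted. With 3 libraries a group, and with few reads for CALCR and DCSTAMP, a difference that missed the threshold may still exist.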
